A study of Mus musculus with 8 samples.

Results

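The genes described are 10 genes of antigen presentation by the major histocompatibility complex (MHC), measured in mouse mammary tumors with and without the microRNA miR-21. Of these, 5 sit in the class II pathway (*H2-Aa*, *H2-Ab1*, *H2-Eb1*, *Cd74* and *Ciita*) and 5 in the class I pathway (*B2m*, *Tap1*, *Tap2*, *Psmb8* and *Psmb9*). They were chosen by name, as genes of this pathway, and all 10 were measured among 23152 genes, with 107 probe sets that carry 1 of these symbols alone. The tumors arose in female MMTV-PyMT mice, in which a viral promoter drives the polyoma middle T oncogene in mammary epithelium, and all 4 groups carry this transgene. The groups were untreated miR-21+/+ (wild-type), irradiated miR-21+/+, untreated miR-21-/- and irradiated miR-21-/- tumors, with 2 arrays each. Per the labels, mice were followed for up to 18 weeks, irradiated ones received 8 Gy at a tumor volume of 1000 mm3, and their tumors then grew to 2000 mm3. The paper's methods give another dose and 1 of its legends another collection time, so dose and time are given here as the labels have them, and the labels give no age per sample. The deletion is present in every cell of the miR-21-/- mice, host immune cells included, and each array is of whole tumor tissue. In such tissue, fewer cells of a type and less RNA per cell cannot be told apart.

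Class I molecules are carried by nearly all nucleated cells and show fragments of the cell's own proteins to CD8 T cells. Their peptides are cut by the proteasome, whose catalytic subunits can be exchanged for immunoproteasome subunits, and are pumped into the endoplasmic reticulum by the TAP transporter. Class II molecules are mainly carried by dendritic cells, B cells and macrophages, show peptides of engulfed proteins to CD4 T cells, and can be induced by interferon gamma in other cells, some tumor cells included.

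The sequences below show promoter letters of members of both arms. They are shown because class II promoters are read by 1 complex on an X box and a Y box. Several class I genes answer to interferon through a response element of their own. miR-21a-5p, the deleted microRNA, is shown with its seed (bases 2 to 8) in capitals. It lies at chr11:86584120-86584141 on the minus strand. All sequences are from RefSeq, build GRCm38.p6, written 5′ to 3′ on the gene's strand.
miR-21a-5p: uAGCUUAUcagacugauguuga
In the windows of *H2-Aa* (chr17:34287824-34287923, minus strand) and *H2-Eb1* (chr17:34305757-34305856, plus strand), capitals mark an X box core, GCAACT, and a Y box, CTGATTGG.
H2-Aa: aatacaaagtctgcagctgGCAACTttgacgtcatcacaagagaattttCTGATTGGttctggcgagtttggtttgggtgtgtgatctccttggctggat
H2-Eb1: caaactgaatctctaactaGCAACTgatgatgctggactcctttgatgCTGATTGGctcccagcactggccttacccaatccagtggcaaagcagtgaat
The 225 bases between *Psmb9* and *Tap1* (chr17:34187331-34187555), read in the direction of *Tap1*, serve as the upstream region of both genes, which are transcribed away from each other. Capitals mark the Y box of *Psmb9*, which appears here as its reverse complement. The X box core letters that begin 196 bases before the start of *Tap1* are left in lower case.
Psmb9 and Tap1: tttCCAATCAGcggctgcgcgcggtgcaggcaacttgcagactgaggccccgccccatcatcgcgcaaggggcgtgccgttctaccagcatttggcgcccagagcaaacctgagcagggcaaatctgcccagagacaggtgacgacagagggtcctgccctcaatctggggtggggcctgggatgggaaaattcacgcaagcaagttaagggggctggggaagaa
In the window of *B2m* (chr2:122147517-122147656, plus strand), capitals mark a match to the interferon-stimulated response element (GAAA, any 2 bases, then GAAA).
B2m: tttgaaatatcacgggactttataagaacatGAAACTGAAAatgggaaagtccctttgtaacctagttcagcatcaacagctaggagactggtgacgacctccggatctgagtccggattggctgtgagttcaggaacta

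Promoter sequences were given for 6 of the 10 members (*B2m*, *Psmb9*, *Tap1*, *Psmb8*, *H2-Aa* and *H2-Eb1*), each from 250 bases before to 50 after the start, and were searched on both strands beside 32544 distinct promoters. The Y box letters were found in 4.07% of all promoters, the X box core in 10.9%, and the response element in 3.45%. An X box core 15 to 45 bases before a Y box on 1 strand was found in 10 promoters (0.0307%), and 3 of these belong to class II genes, *H2-Aa*, *H2-Eb1* and *H2-Eb2*. The boxes lie 24 bases apart in *H2-Aa* and 23 in *H2-Eb1*. *Psmb8* holds 1 match to the gamma-activated site TTCNNNGAA, 97 bases before its start, a motif found in 8.33% of promoters. The motifs and the spacing were chosen with the members' promoters in view, and a match is a description of letters only. Of the members, 7 lie on chromosome 17, where *Psmb9*, *Tap1*, *Psmb8*, *Tap2*, *H2-Ab1*, *H2-Aa* and *H2-Eb1* follow each other within 135 kb, and *H2-Aa* and *H2-Eb1* thus share both their neighborhood and their promoter boxes.

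Values are log2 signals, so a difference of 1 is a doubling, and a gene's level is the mean of its probe sets. The median level over all genes was 5.13, and of 10 luminal epithelial markers, which check the labelled mammary tumor tissue, 1 lay below it. Replicate 1 of the irradiated miR-21-/- tumors stood apart from the other arrays, with correlations of 0.898 to 0.915 to each of them against 0.955 to 0.987 over the other 21 pairs of arrays. Its 8 adipocyte markers lay on average 5.19 above their 8-array mean, and those of the other arrays between 1.09 and 0.21 below it (-1.09 to -0.21). Results that rest on this array are given both ways, with it and leaving it out. The only probe set shared by *Mir21* and its overlapping gene *Vmp1* read 2.34 to 3.08 in the 4 miR-21+/+ arrays and 1.69 to 2.02 in the 4 miR-21-/- arrays, which do not overlap. All of these values are dim, below the 25th percentile of the probe sets with 1 symbol (4.21). The labels do not say that the arrays of a group came from separate mice, so each p-value speaks only of the spread among these 8 arrays, which may be technical.

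Within class II, 3 genes had their lowest levels in the untreated miR-21+/+ tumors and the other 2 did not. *Cd74*, which encodes the invariant chain that escorts class II molecules and blocks their groove, read 7.16 and 8.33 in untreated miR-21+/+, 8.80 and 9.43 in irradiated miR-21+/+, 9.03 and 9.41 in untreated miR-21-/-, and 9.15 and 9.95 in irradiated miR-21-/- tumors. Both untreated miR-21+/+ arrays were below all 6 others, whose groups overlapped each other. *H2-Aa*, the alpha chain of the class II molecule I-A, read 5.01 and 5.17 in untreated and 5.60 and 6.07 in irradiated miR-21+/+ tumors, and 5.75 and 5.99 in untreated and 6.14 and 6.13 in irradiated miR-21-/- tumors. Again the untreated miR-21+/+ arrays were the lowest pair, and the irradiated miR-21-/- arrays were the highest. *H2-Ab1*, the beta chain of I-A, read 6.20 and 7.02 in untreated and 7.32 and 7.95 in irradiated miR-21+/+ tumors, and 7.08 and 7.03 in untreated and 7.26 and 7.45 in irradiated miR-21-/- tumors. Its untreated miR-21+/+ arrays were the lowest as well, but replicate 2 was only just below the untreated miR-21-/- arrays. Such an order, with both untreated miR-21+/+ arrays below all 6 others, was found in 3 of the 10 members and in 6.51% of all genes.

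*H2-Eb1*, the beta chain of the other class II molecule, I-E, read 5.47 and 4.94 in untreated and 5.59 and 5.30 in irradiated miR-21+/+ tumors, and 5.27 and 5.05 in untreated and 5.26 and 5.48 in irradiated miR-21-/- tumors. The untreated miR-21-/- arrays were both below both irradiated miR-21+/+ arrays, every other pair of groups overlapped, and its untreated miR-21+/+ arrays held both 1 of the highest levels and the lowest. *Ciita*, the class II transactivator that the X and Y box complex recruits, read 5.57 and 5.20 in untreated and 5.56 and 6.13 in irradiated miR-21+/+ tumors, and 5.74 and 5.71 in untreated and 5.34 and 5.65 in irradiated miR-21-/- tumors. The untreated miR-21-/- arrays were both above the untreated miR-21+/+ arrays, while the irradiated groups overlapped. Its order of arrays thus differed from that of *Cd74*, *H2-Aa* and *H2-Ab1*.

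Each of the 5 class I genes had its highest level on a miR-21+/+ array. *Psmb8*, an immunoproteasome catalytic subunit, read 7.50 and 8.42 in untreated and 8.10 and 8.71 in irradiated miR-21+/+ tumors. In the miR-21-/- tumors it read 7.63 and 7.58 untreated and 7.62 and 7.58 irradiated, a range of 0.05 over 4 arrays against 1.21 over the miR-21+/+ arrays. *Psmb9*, the neighboring immunoproteasome subunit, read 6.59 and 7.41 in untreated and 6.75 and 7.51 in irradiated miR-21+/+ tumors, and 6.56, 6.64, 6.71 and 6.57 in the miR-21-/- tumors in the same order, with ranges of 0.92 and 0.15. In both genes 3 miR-21+/+ arrays were thus above every miR-21-/- array, and the exception was replicate 1 of the untreated miR-21+/+ tumors.

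*Tap1*, 1 of the 2 chains of the peptide transporter, read 7.82 and 8.79 in untreated and 8.60 and 8.77 in irradiated miR-21+/+ tumors, and 7.87 and 8.14 in untreated and 7.58 and 8.44 in irradiated miR-21-/- tumors. The irradiated groups did not overlap, the miR-21-/- arrays being lower, and the same 3 miR-21+/+ arrays were the highest of the 8. *Tap2*, the other chain, stayed within a narrow span, from 5.78 in replicate 1 to 6.42 in replicate 2 of the untreated miR-21+/+ tumors, with the other 6 arrays between 5.90 and 6.22. *B2m*, the light chain of every classical class I molecule, read 11.60 and 12.55 in untreated and 12.45 and 12.71 in irradiated miR-21+/+ tumors, and 11.88 and 11.96 in untreated and 12.52 and 12.29 in irradiated miR-21-/- tumors. Irradiated miR-21-/- arrays were above untreated ones of that genotype, and the miR-21+/+ groups overlapped.

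**Figure D1:**
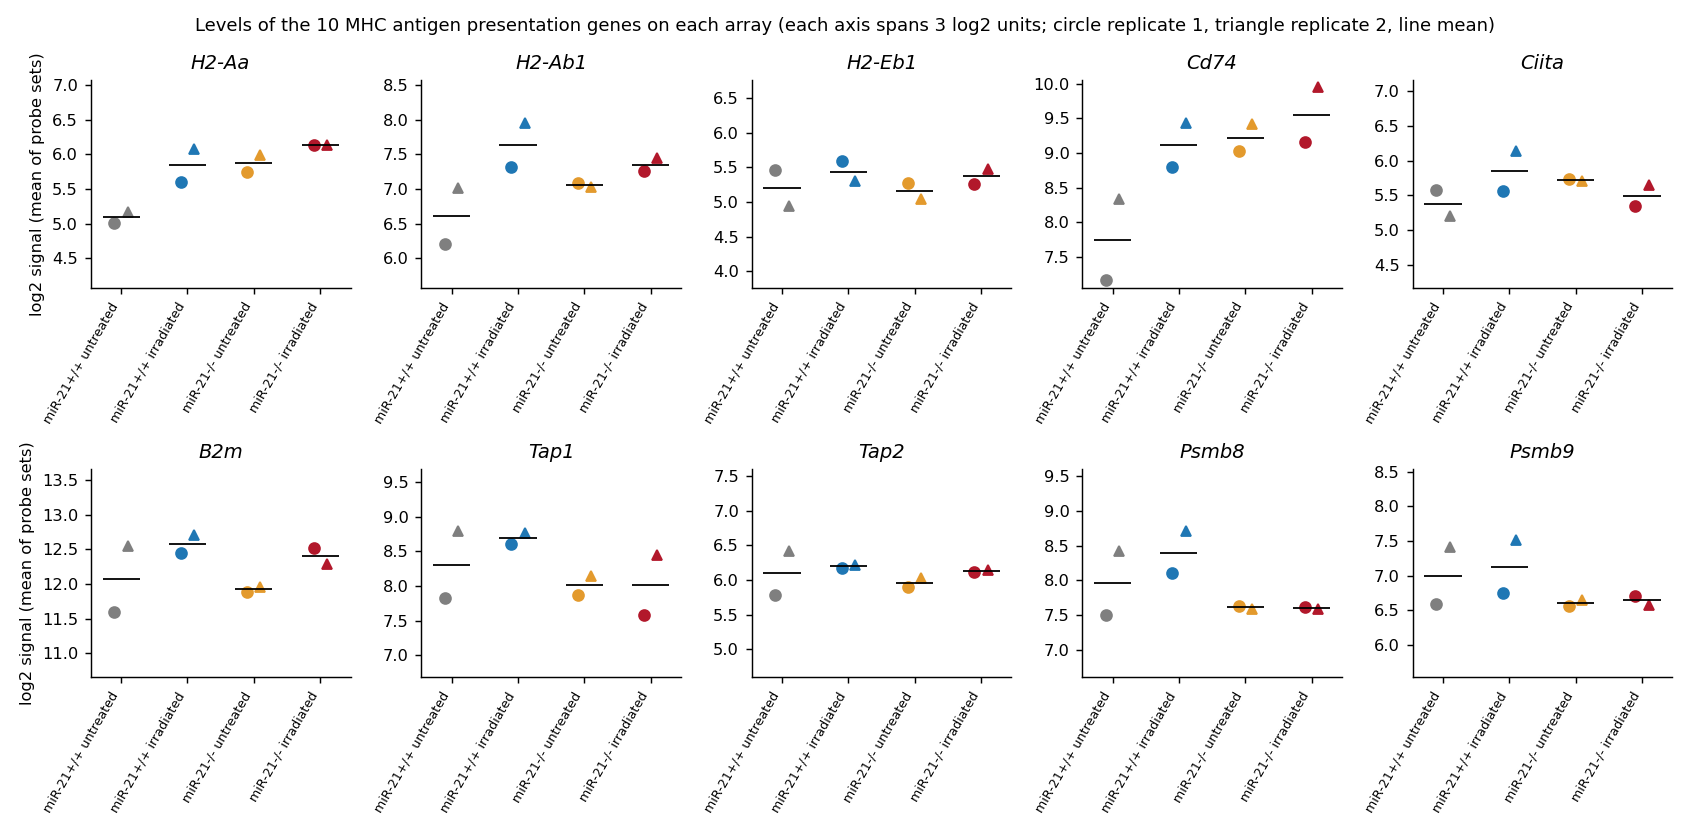
Log2 level (y axis, mean of a gene's probe sets) of the 10 genes on each of the 8 arrays, by genotype and treatment (x axis), with a circle for replicate 1, a triangle for replicate 2 and a line for the group mean. *H2-Aa*, *H2-Ab1* and *Cd74* have their lowest 2 arrays in the untreated miR-21+/+ group, while the 4 miR-21-/- arrays of *Psmb8* lie within 0.05 of each other.

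To determine which of these differences exceeded the spread between arrays, all 8 arrays were fitted together with limma, and p-values were adjusted over all 23152 genes by the Benjamini-Hochberg method. No member had an adjusted p under 0.05 in any of the 7 comparisons. The smallest adjusted p of a member was 0.167 and 0.34 for genotype in untreated and irradiated tumors, 0.31 and 0.583 for radiation in miR-21+/+ and miR-21-/- tumors, 0.662 for the interaction, and 0.124 and 0.261 for the mean effects of genotype and radiation. The shares of all genes past this threshold were 0.423% and 0.406%, 0.212% and 0.013%, 0.00432%, and 2.34% and 0.307%, in the same order. Members were therefore also read at the thresholds of the study's methods, that is, a difference of 2-fold or more in either direction and an unadjusted p under 0.05.

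With miR-21 absent, *Cd74* was higher and the remaining members differed by less than 2-fold in untreated tumors. *Cd74* was 2.77-fold higher in miR-21-/- than in miR-21+/+ tumors (log2 difference 1.47, SE 0.44, limma adjusted p = 0.208) and was the only member of the 10 past the study's thresholds, as were 3.11% of all genes, 0.955% being higher. *H2-Aa* was 1.72-fold higher (0.78, SE 0.21, adjusted p = 0.167), the only other member with an unadjusted p under 0.05, as in 13.2% of all genes. *H2-Ab1* differed by 0.44, *Ciita* by 0.34 and *H2-Eb1* by -0.04. Both miR-21-/- arrays were above both miR-21+/+ arrays in *Cd74*, *H2-Aa*, *H2-Ab1* and *Ciita*, 4 of 10 members beside 27.7% of all genes. All 5 class I genes were lower in the mean, from -0.14 for *Tap2* to -0.40 for *Psmb9*, and none had an unadjusted p under 0.05. This direction rests on 1 array, since leaving out untreated miR-21+/+ replicate 2 gave 0.32 for *B2m*, 0.19 for *Tap1*, 0.19 for *Tap2*, 0.11 for *Psmb8* and 0.00 for *Psmb9*. The median over the members was -0.09, beside 0.03 over all genes. It was 0.61 over the 4 class II chains (*H2-Aa*, *H2-Ab1*, *H2-Eb1* and *Cd74*) and -0.30 over the 5 class I genes. The call of *Cd74* was lost on leaving out untreated miR-21+/+ replicate 1, where the log2 difference was 0.89, on leaving out untreated miR-21-/- replicate 2, where it was 1.28, and without moderation of the variances, at an unchanged difference.

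In irradiated tumors no member passed the study's thresholds between genotypes, beside 3.96% of all genes. *Psmb8* was 1.74-fold lower in miR-21-/- tumors (log2 difference -0.80, SE 0.32, limma adjusted p = 0.34) and was the only member with an unadjusted p under 0.05, as in 13.8% of all genes. *Tap1* differed by -0.68 (SE 0.38) and *Psmb9* by -0.49 (SE 0.33). *Tap1*, *Psmb8*, *Psmb9* and *Tap2* had both irradiated miR-21-/- arrays below both irradiated miR-21+/+ arrays, 4 of 10 members beside 22.6% of all genes, although *Tap2* differed by only -0.07. *Cd74* and *H2-Aa* remained above 0, at 0.44 and 0.30, and *H2-Ab1* was at -0.28. Of these, only *H2-Aa* had both miR-21-/- arrays above both miR-21+/+ arrays, as had 18.9% of all genes. The median was -0.23 over the members, -0.00 over all genes, 0.11 over the class II chains and -0.49 over the class I genes. Irradiated miR-21-/- replicate 1 stood apart. Leaving it out, *Psmb8* differed by -0.82, *Tap1* by -0.25, *Cd74* by 0.83, *Ciita* by -0.20 and *B2m* by -0.30. With both arrays *Ciita* and *B2m* differed by -0.35 and -0.18, so these values moved by more than 1.5 times except that of *Psmb8*. The *Psmb8* difference kept its size, but its 95% interval then ran from -1.68 to 0.04 and held 0. With both arrays that interval ran from -1.56 to -0.05 and did not hold 0. Without replicate 2 of the group, *Tap1* was the 1 member called.

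Between irradiated and untreated miR-21+/+ tumors the members with the largest differences were class II chains. *Cd74* was 2.58-fold higher in irradiated than in untreated miR-21+/+ tumors (log2 difference 1.37, SE 0.44, limma adjusted p = 0.379) and *H2-Ab1* 2.04-fold higher (1.03, SE 0.31, adjusted p = 0.357). These were 2 of 10 members past the study's thresholds, beside 2.1% of all genes, 1.16% being higher. *H2-Aa* was 1.68-fold higher (0.75, SE 0.21, adjusted p = 0.31), so that 3 of 10 members had an unadjusted p under 0.05, as had 8.88% of all genes. All 10 members had a log2 difference above 0, as had 50.2% of all genes, from 0.10 for *Tap2* to 1.37 for *Cd74*. Leaving out untreated miR-21+/+ replicate 1, 6 of 10 were above 0, beside 49.6% of all genes, with *Tap1* at -0.10, *Tap2* at -0.22, *Psmb8* at -0.02 and *Psmb9* at -0.28. Leaving out replicate 2 of this group, 9 of 10 were above 0, beside 50.8% of all genes, with *H2-Eb1* at -0.03. The median was 0.45 over the members and 0.00 over all genes, 0.89 over the class II chains and 0.39 over the class I genes. Both irradiated arrays were above both untreated ones in *H2-Aa*, *H2-Ab1* and *Cd74*, 3 of 10 members beside 22.4% of all genes. This comparison shares the untreated miR-21+/+ arrays with that of genotype in untreated tumors, so their values for *Cd74* and *H2-Aa* are not separate evidence. Both calls were lost without moderation, leaving out untreated miR-21+/+ replicate 1 (*Cd74* 0.78, *H2-Ab1* 0.62) and leaving out irradiated miR-21+/+ replicate 2 (*Cd74* 1.05, *H2-Ab1* 0.71).

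In miR-21-/- tumors, *Cd74*, *H2-Ab1* and *H2-Aa* had smaller differences between irradiated and untreated arrays than in miR-21+/+ tumors. That of *B2m* was similar (0.48 beside 0.51) and that of *Tap2* was not smaller (0.17 beside 0.10). The interaction, given below, did not show that the responses differed. No member passed the study's thresholds, beside 3.04% of all genes, and none had an unadjusted p under 0.05, beside 11% of all genes. *B2m* had the largest difference of the members (0.48, SE 0.30, limma adjusted p = 0.583). *Cd74* differed by 0.33, *H2-Ab1* by 0.30 and *H2-Aa* by 0.26, *Tap1* and *Psmb8* by 0.00 and -0.00, and *Ciita* by -0.23. Both irradiated arrays were above both untreated ones in *B2m*, *H2-Aa*, *H2-Ab1* and *Tap2*, 4 of 10 members beside 16.4% of all genes. The 95% interval ran from -0.69 to 1.35 for *Cd74*, from -0.42 to 1.03 for *H2-Ab1* and from -0.23 to 0.74 for *H2-Aa*, with upper ends close to the differences of these genes in miR-21+/+ tumors. That of *Psmb8* ran from -0.76 to 0.75. The median was 0.19 over the members and -0.04 over all genes, and 8 of 10 members were above 0, as were 45.1% of all genes. Leaving out irradiated miR-21-/- replicate 1, *Cd74* differed by 0.73, *Tap1* by 0.43 and *B2m* by 0.36, again with no member past an unadjusted p of 0.05.

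Whether radiation acted differently in the 2 genotypes was tested as the interaction, the radiation difference in miR-21-/- minus that in miR-21+/+ tumors. It was -1.04 for *Cd74* (SE 0.62, limma adjusted p = 0.712), -0.73 for *H2-Ab1* (SE 0.44), -0.69 for *Ciita* (SE 0.35, adjusted p = 0.662) and -0.49 for *H2-Aa* (SE 0.29). No member passed the study's thresholds, beside 3.91% of all genes, and no unadjusted p was under 0.05, beside 8.03% of all genes. These values moved with single arrays. *Cd74* was at -0.45 leaving out untreated miR-21+/+ replicate 1, at -1.62 leaving out replicate 2 of that group and at -0.64 leaving out irradiated miR-21-/- replicate 1, and *H2-Ab1* at -0.32, -1.13 and -0.63 in the same order. In the second of these cases both passed the study's thresholds, beside 4.13% of all genes. With all 8 arrays, a different radiation response of the class II genes was therefore not shown, and the interval of *Cd74*, from -2.48 to 0.41, holds both 0 and a complete loss of the difference seen in miR-21+/+ tumors. Averaged over both treatments, the genotype difference was 0.95 for *Cd74* (SE 0.31, adjusted p = 0.177), 0.54 for *H2-Aa* (SE 0.15, adjusted p = 0.124) and -0.58 for *Psmb8* (SE 0.23, adjusted p = 0.252), 3 of 10 members at an unadjusted p under 0.05 beside 17.4% of all genes. Averaged over both genotypes, the radiation difference was 0.85 for *Cd74* (adjusted p = 0.367), 0.67 for *H2-Ab1* (adjusted p = 0.326), 0.50 for *H2-Aa* (adjusted p = 0.261) and 0.49 for *B2m* (adjusted p = 0.452). The first 3 had an unadjusted p under 0.05, as had 11.1% of all genes. With all 8 arrays none of the members reached 2-fold in either average, beside 1.96% and 1.14% of all genes at the study's thresholds. Leaving out irradiated miR-21-/- replicate 1, *Cd74* did so, at 1.15 for genotype and 1.05 for radiation. It was at 1.25 and 1.14 leaving out untreated miR-21+/+ replicate 2, and at 0.66 and 0.56 leaving out replicate 1 of that group.

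**Figure D2:**
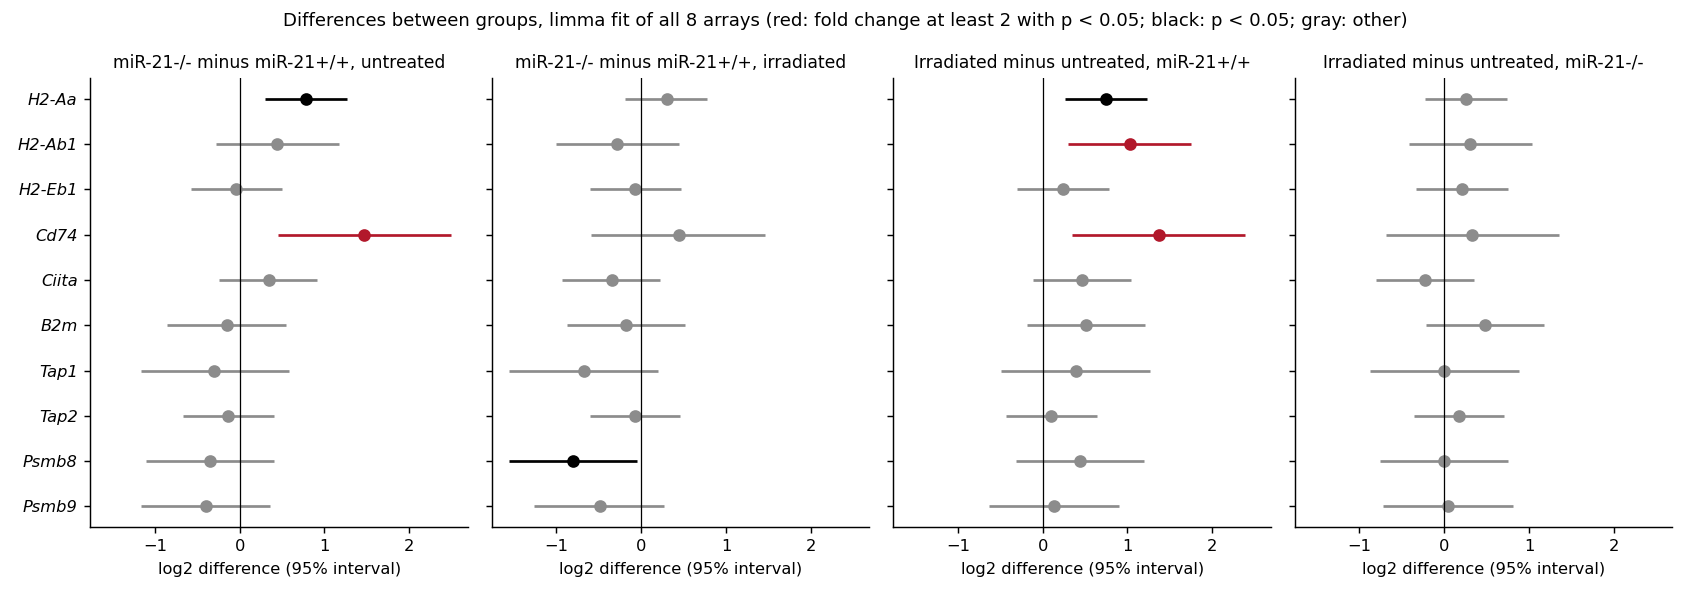
Log2 differences of the 10 genes (rows) with 95% intervals from limma (x axis) in the 4 comparisons of groups. Red marks *Cd74* in untreated tumors, at 1.47, and *Cd74* and *H2-Ab1* after radiation of miR-21+/+ tumors, at 1.37 and 1.03, which passed the study's thresholds, and black marks other members with such a p.

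The members also differed between arrays of 1 group, in the median more so in miR-21+/+ than in miR-21-/- tumors. In the untreated miR-21+/+ group replicate 2 was above replicate 1 by 1.17 in *Cd74*, 0.97 in *Tap1*, 0.95 in *B2m* and 0.93 in *Psmb8*. Gaps of that size or more were seen between these 2 arrays in 0.907%, 1.72%, 1.89% and 2.04% of all genes. *H2-Ab1*, *Psmb9* and *Tap2* followed at 0.82, 0.82 and 0.65, so that 7 of 10 members were higher in replicate 2 by at least 0.5, beside 6.76% of all genes. *H2-Eb1* and *Ciita* went the other way, by -0.53 and -0.36. Counted at any size, replicate 2 was the higher array in 8 of 10 members in untreated and 9 of 10 in irradiated miR-21+/+ tumors (49.2% and 51.4% of all genes), and in 6 of 10 in untreated and 6 of 10 in irradiated miR-21-/- tumors (50.2% and 53.5%). The median absolute gap over the members was 0.82 in untreated and 0.52 in irradiated miR-21+/+ tumors, beside 0.20 and 0.19 over all genes. In untreated and irradiated miR-21-/- tumors it was 0.10 and 0.20, below the 0.18 and 0.32 of all genes. The range over the 4 miR-21+/+ arrays was larger than that over the 4 miR-21-/- arrays in all 10 members, and in 39.1% of all genes, and it was at least 4 times as large in *H2-Ab1*, *Psmb8* and *Psmb9*, beside 2.34% of all genes. These counts were made after the levels were seen, and the 10 genes are not independent of each other.

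**Figure D3:**
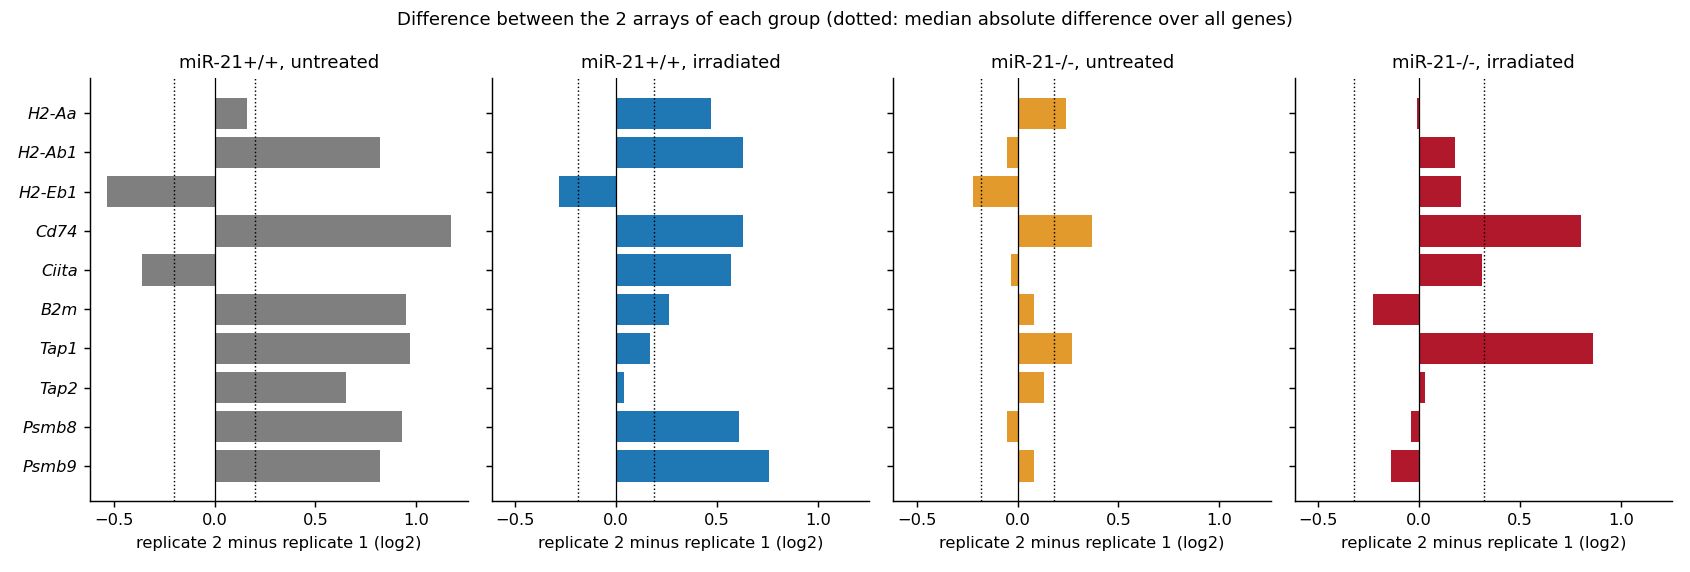
Replicate 2 minus replicate 1 (x axis, log2 units) for the 10 genes (rows) in each group, with dotted lines at the median absolute gap over all genes. In untreated miR-21+/+ tumors 7 genes lie at 0.65 to 1.17, and in untreated miR-21-/- tumors *Cd74* has the widest gap at 0.37.

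Because a gene's level is a mean over probe sets along its exons, the differences were also read per probe set. All 12 probe sets of *Cd74* were higher in untreated miR-21-/- than miR-21+/+ tumors, by 0.94 to 2.16, and all 12 were higher in irradiated than untreated miR-21+/+ tumors, by 0.89 to 1.70. All 7 of *H2-Ab1* were higher in both comparisons, by 0.24 to 1.12 and by 0.42 to 1.72, but only 1 of 7 was higher in irradiated miR-21-/- than miR-21+/+ tumors. *H2-Aa* was less uniform. Of its 9 probe sets 7 were higher in untreated miR-21-/- tumors, from -0.57 to 1.94 over the 9, and its brightest read 8.43 and 9.22 in untreated miR-21+/+ tumors and 9.86 to 10.50 in the 4 miR-21-/- arrays. All 13 probe sets of *Tap1* were lower in irradiated miR-21-/- than miR-21+/+ tumors, by -0.07 to -1.28, as were 9 of 11 of *Psmb8*. The brightest *Tap1* probe set read 9.40 and 10.41 in irradiated miR-21-/- and 10.52 and 10.51 in irradiated miR-21+/+ tumors, so its difference lay mostly in replicate 1. Probe sets read on the same arrays do not replicate a difference. The brightest *Psmb8* probe set ranged over 1.82 in the miR-21+/+ and 0.27 in the miR-21-/- arrays, the latter wider than the 0.05 of the gene's mean. Between irradiated and untreated miR-21-/- tumors, 6 of the 11 *Psmb8* probe sets were higher and 5 lower, from -0.63 to 0.49. The flat level of *Psmb8* in miR-21-/- tumors is thus a mean over probe sets that moved in opposite directions. With the brighter part of each gene's probe sets (the upper 50% by level), *H2-Aa* differed by 1.20 between untreated genotypes and by 1.15 after radiation of miR-21+/+ tumors, and *Psmb8* by -1.18 between irradiated genotypes, each past the study's thresholds. *Ciita* had 20 probe sets whose differences between untreated genotypes ran from -1.42 to 2.86, 12 higher and 8 lower. H2 genes vary in sequence between mouse strains and the strain is labelled only as MMTV-PyMT, and the part of sequence differences under the probes was not tested.

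Of 58 other genes of the pathway on a list, 52 were measured. In untreated tumors none passed the study's thresholds between genotypes and 27 of 52 had a difference above 0 (median 0.01), beside 3.11% and 53.4% of all genes. In irradiated tumors none passed and 16 were above 0 (median -0.18), beside 3.96% and 49.6% of all genes, and leaving out irradiated miR-21-/- replicate 1 gave 2 called higher and 21 above 0 (median -0.10). After radiation of miR-21+/+ tumors 37 of 52 were above 0 (median 0.17) and none was called, beside 50.2% and 2.1% of all genes, and leaving out untreated miR-21+/+ replicate 1 gave 26 above 0 (median -0.01). After radiation of miR-21-/- tumors 26 were above 0 (median 0.01), 2 called higher and 1 lower, beside 45.1% of all genes above 0 and 3.04% called. Leaving out irradiated miR-21-/- replicate 1 gave 26 above 0 (median 0.00), beside 47% of all genes. In the interaction 1 was called lower, a call lost leaving out irradiated miR-21-/- replicate 1, beside 3.91% of all genes called in either direction. There 16 were above 0 (median -0.18), and leaving out the same array gave 23 (median -0.05), beside 47.4% and 48.1% of all genes. At an adjusted p under 0.05 the only call in any comparison was *H2-Q1*, a nonclassical class I heavy chain, which read 4.64 to 5.05 in the 4 miR-21+/+ and 5.29 to 5.70 in the 4 miR-21-/- arrays (mean genotype difference 0.70, SE 0.14, limma adjusted p = 0.049), beside 2.34% of all genes. Class I heavy chains are near copies of each other, so the source of such a signal is uncertain.

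The regulators and the partners of the members gave the following values. *Nlrc5*, the class I transactivator, read 5.13 and 6.32 in untreated and 5.83 and 6.47 in irradiated miR-21+/+ tumors, and 4.65 and 4.88 in untreated and 5.67 and 5.99 in irradiated miR-21-/- tumors. Its untreated miR-21-/- arrays were the lowest of the 8 (genotype difference -0.96, SE 0.39, limma adjusted p = 0.357), and it passed the study's thresholds after radiation of miR-21-/- tumors (1.06, SE 0.39, adjusted p = 0.408). The 8 class II and class I regulators other than *Ciita* had medians of -0.10 and -0.20 between genotypes in untreated and irradiated tumors. Of the 6 other class II chains and peptide exchange factors, 6 were above 0 after radiation of miR-21+/+ tumors (median 0.23, none with an unadjusted p under 0.05), and 5 of the 6 had a mean level under the median of all genes. *Lgmn*, a lysosomal protease of class II antigen processing, was called higher after radiation of miR-21-/- tumors (1.01, SE 0.26, adjusted p = 0.285). *H2-Q2*, another class I heavy chain, was called lower there (-1.16, SE 0.21, adjusted p = 0.188) and in the interaction (-1.04, SE 0.30, adjusted p = 0.464). It read 6.43 and 6.51 in untreated and 5.25 and 5.37 in irradiated miR-21-/- tumors. Its call in the interaction, close to the 2-fold threshold, was lost leaving out irradiated miR-21-/- replicate 1. In irradiated tumors *Pdia3* and *Calr*, chaperones of the class I loading complex, differed between genotypes by -0.58 and -0.50 (adjusted p = 0.238 and 0.305). *Pdia3* read 10.03 and 10.13 in irradiated miR-21+/+ and 9.32 and 9.68 in irradiated miR-21-/- tumors. *Calr* read 9.80 and 10.02, and 9.28 and 9.54. Replicate 1, which stood apart, was thus the lower miR-21-/- array in both. *Jak2*, a kinase of the interferon gamma receptor, was higher after radiation of miR-21+/+ tumors (0.84, SE 0.22, adjusted p = 0.279). *Ifng*, the interferon gamma gene, was at a mean level of 2.89, the lowest of its list. The constitutive proteasome subunits *Psmb5*, *Psmb6* and *Psmb7*, which *Psmb8*, *Psmb9* and *Psmb10* replace, had medians of -0.14 and -0.17 between genotypes in untreated and irradiated tumors.

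Markers of the cells that carry class II molecules were read beside *Cd74*, *H2-Aa* and *H2-Ab1*. In untreated tumors all 10 dendritic cell markers had a genotype difference above 0 (median 0.27), as had all 7 B cell markers (median 0.27), while 53.4% of all genes were above 0. These markers were dim, 9 of 10 and 7 of 7 with a mean level below the median of all genes. The dendritic cell marker with the smallest p was *Itgae*, at 4.01 and 4.06 in untreated miR-21+/+ and 4.62 and 4.68 in untreated miR-21-/- tumors (0.61, SE 0.20, limma adjusted p = 0.248). The B cell marker was *Cd79a*, part of the B cell receptor, at 3.50 and 3.62 and at 4.17 and 4.01 (0.53, SE 0.20, adjusted p = 0.323). Macrophage markers went the other way there, with 1 of 12 above 0 (median -0.40, 2 called lower). After radiation of miR-21+/+ tumors the medians were 0.16 over the dendritic, 0.09 over the B cell and -0.06 over the macrophage markers. That over the T and NK cell markers was 0.35, with all 10 above 0, beside 50.2% of all genes. These markers were dim as well, 9 of 10 with a mean level below the median of all genes. In miR-21-/- tumors radiation was accompanied by macrophage markers above 0 in 12 of 12 (median 1.03, 6 called higher), beside 45.1% of all genes above 0 and 3.04% called. Leaving out irradiated miR-21-/- replicate 1, 12 of 12 were above 0 (median 0.91, 4 called higher). *Cd74* and *H2-Ab1* differed there by 0.33 and 0.30, and by 0.73 and 0.39 leaving out that array. The part of these cells in the class II levels was not tested.

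The class I genes were set beside the same lists. Luminal epithelial markers had medians of -0.31 and -0.99 between genotypes in untreated and irradiated tumors. In the latter 5 of 10 were called lower, beside 2.63% of all genes. Leaving out irradiated miR-21-/- replicate 1, the median in irradiated tumors was -0.35 and fewer of these markers were called, so much of this difference rests on that array. Among the 4 comparisons of groups, *Psmb8*, *Tap1*, *Psmb9* and *B2m* also had their lowest differences between irradiated genotypes, as had *H2-Ab1*, *H2-Eb1* and *Ciita* of class II. Leaving out irradiated miR-21-/- replicate 1, this no longer held for *Tap1* (-0.25 there and -0.30 between untreated genotypes) and *H2-Eb1* (0.03 and -0.04). The mean of the luminal markers lay 0.97 below the 8-array mean (-0.97) in replicate 1 and at -0.02 in replicate 2 of the irradiated miR-21-/- tumors. In these arrays *Psmb8* read 7.62 and 7.58, and *Tap1* read 7.58 and 8.44, lower in replicate 1 as the luminal markers were. Fibroblast and endothelial markers of replicate 1 lay at 1.70 and 1.48 above their 8-array means. *Psmb8* was as low in both untreated miR-21-/- arrays, in which the luminal markers lay at -0.10 and -0.10 and the adipocyte markers at -0.96 and -0.88. *Tap1* read 7.87 and 8.14 in these untreated arrays. The part of cell composition in the class I levels was not tested.

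**Figure D4:**
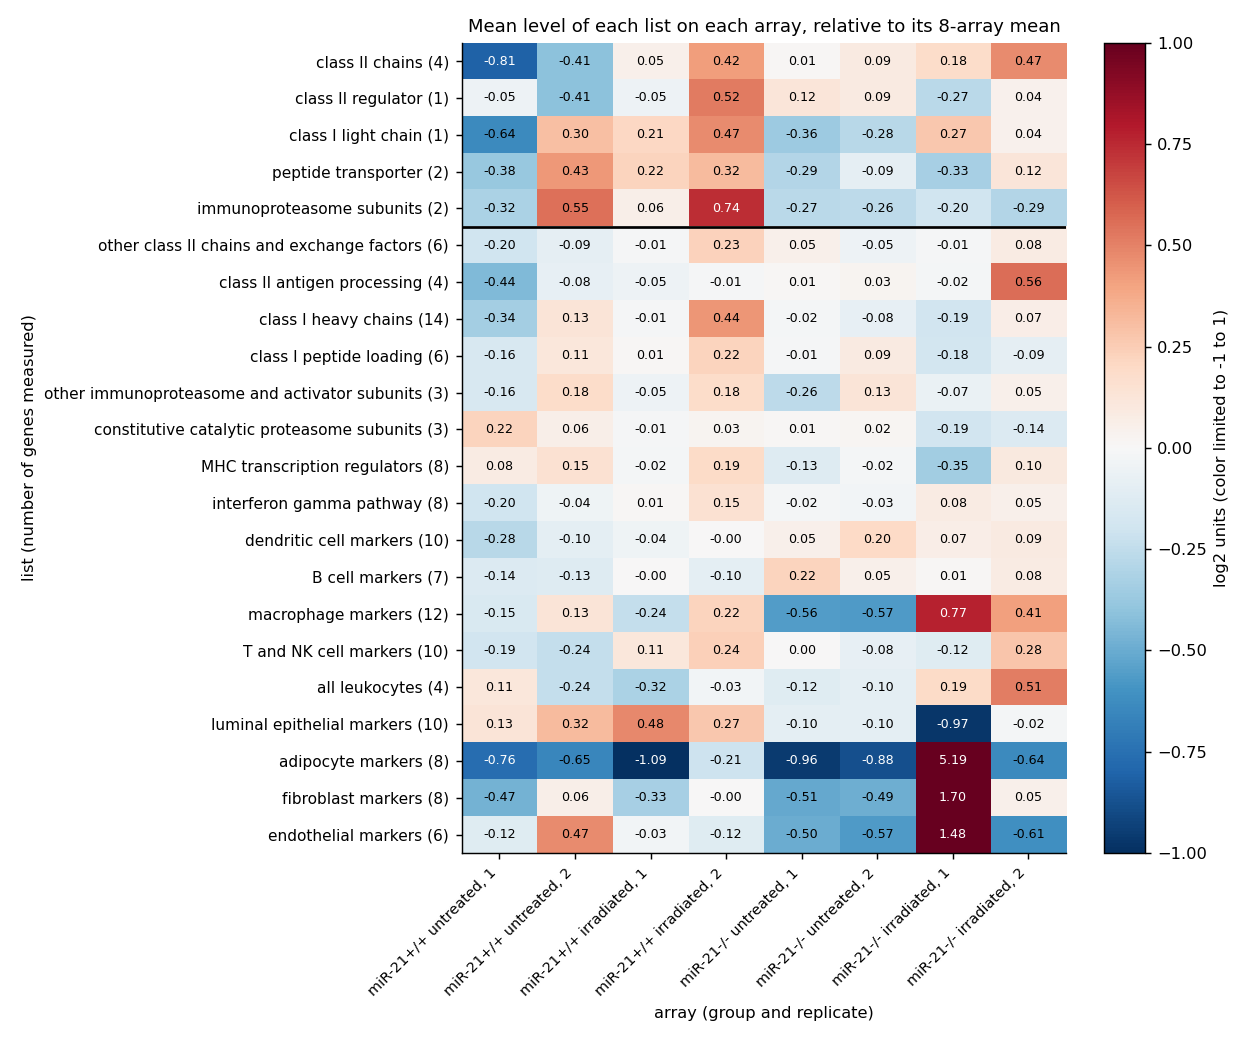
Mean level of each gene list (rows, number of genes measured in parentheses) on each array (columns), as log2 units from its 8-array mean, with the members above the black line. Replicate 1 of the irradiated miR-21-/- tumors stands out at 5.19 in the adipocyte markers, the macrophage markers are lowest (-0.56 and -0.57) in untreated miR-21-/- tumors, and the class II chains are lowest (-0.81 and -0.41) in untreated miR-21+/+ tumors.

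Finally, the genes most like the members over the 8 arrays were sought among 10776 genes with a level above the median and at least 3 probe sets. The points are 8 arrays of 4 groups, so a correlation also reflects the groups and is given as a description. For the mean of the 5 class I genes the highest Pearson correlations were those of *Lgals9* (0.960), *Arid5b* (0.945), *Lgals3bp* (0.942), *Oasl2* (0.936) and *Herc6* (0.932). *Oasl2*, a relative of the oligoadenylate synthetases and a known interferon-stimulated gene, read 6.90 and 8.99 in untreated and 8.13 and 8.56 in irradiated miR-21+/+ tumors, and 7.42, 7.77, 7.39 and 7.39 in the miR-21-/- tumors. *Lgals9*, which encodes the lectin galectin-9, read 8.54 and 10.97 in untreated and 10.48 and 10.67 in irradiated miR-21+/+ tumors, and 9.16 to 9.59 in the miR-21-/- tumors. Both thus had the low replicate 1 and the high replicate 2 of untreated miR-21+/+ tumors, with wider gaps than *Psmb8*, and 3 miR-21+/+ arrays above all miR-21-/- arrays.

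For the mean of the 4 class II chains the highest correlations were those of *Zfp788* (0.958), *Ctsd* (0.952), *Txndc16* (0.947), *Csn2* (0.935) and *D4Wsu53e* (0.927). *Ctsd*, the lysosomal protease cathepsin D, read 9.95 and 10.29 in untreated miR-21+/+ tumors and 10.62 to 10.99 in the other 6 arrays. *Csn2*, the milk protein beta-casein, read 2.32 and 3.89 in untreated miR-21+/+ tumors, 8.93 and 8.77 in untreated miR-21-/- tumors, and 10.17 to 12.74 in the 4 irradiated arrays. Both share with *Cd74* and *H2-Aa* that the untreated miR-21+/+ arrays were the lowest 2. *H2-Eb1*, although part of the mean, had a correlation of 0.119 with it.

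**Figure D5:**
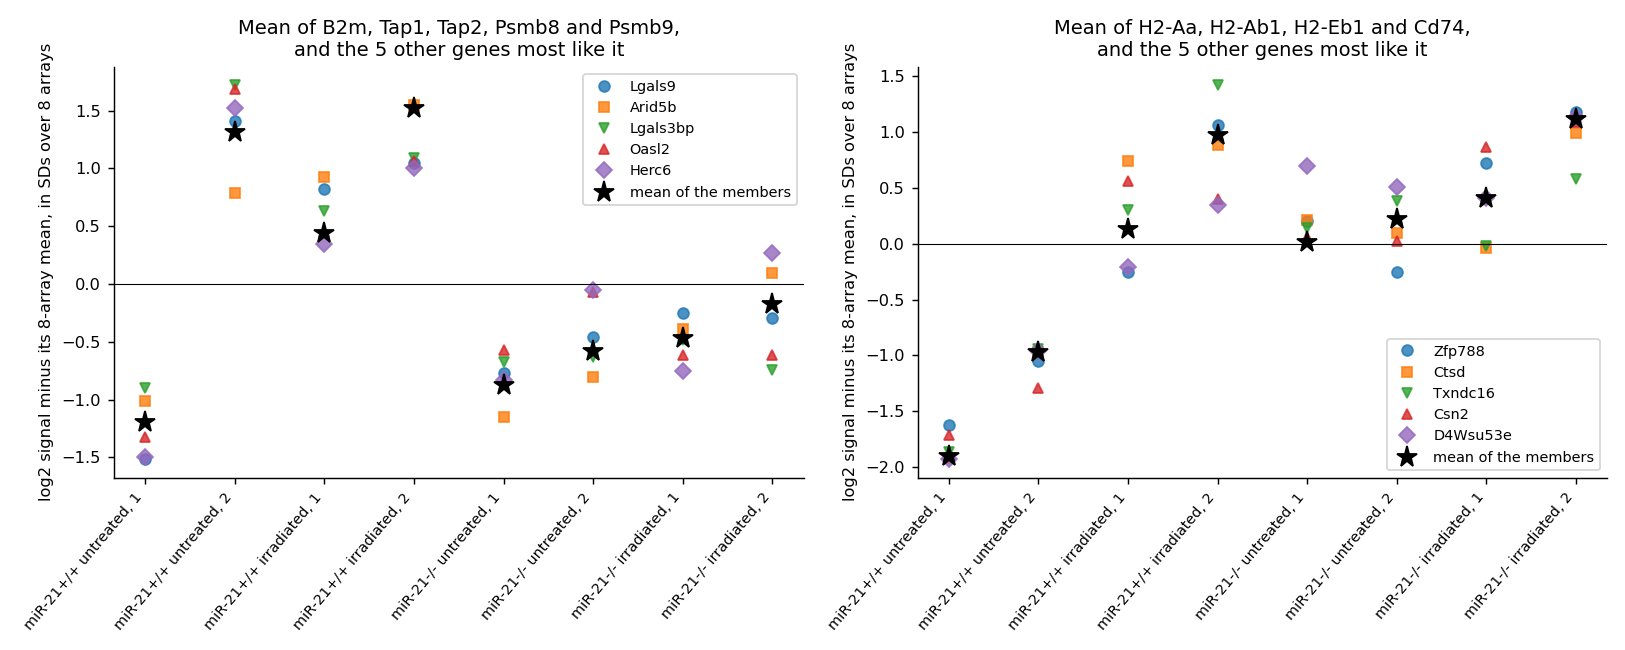
Levels on the 8 arrays (x axis) of the class I gene mean (left) and the class II chain mean (right), as stars, with the 5 genes most like each, in SDs from the gene's own 8-array mean (y axis). On the left 3 miR-21+/+ arrays are high and replicate 1 of the untreated miR-21+/+ tumors is low, and on the right both untreated miR-21+/+ arrays are the lowest.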

How the data were processed

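Total RNA of mammary tumors of 4 groups (2 arrays each) was hybridised to Affymetrix arrays. Per the labels, the authors made log2 signals of exon-level probe sets by RMA in Affymetrix Expression Console 1.4. RMA subtracts a modelled background, makes the arrays' quantiles equal and fits probes by median polish, and Transcriptome Analysis Console 3.1 is named beside it. Quantile normalization removes differences in overall brightness, and no detection call or genome build of the probes was used here. Array medians over genes lay between 5.08 and 5.16. Arrays have no read depth, so their number limits the precision.

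Of 269751 probe sets, 233753 were listed with 1 gene symbol and were averaged per gene, giving 23152 genes with a median of 8 probe sets. Those with several symbols (5139) or none (30859) were left out. All 8 arrays were fitted with limma 3.58.1 in R 4.3.3 (1 mean per group, eBayes, 4 residual and 3.54 prior degrees of freedom), which names every p and adjusted p given. The 7 comparisons were genotype within each treatment, radiation within each genotype, the interaction, and both mean effects. The fit was tested on simulated data with known changes. Summaries and plots used the R package data.table (version 1.17.8) and, in Python 3.11.15, pandas 2.3.3, numpy 2.4.6 and matplotlib 3.10.9.

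The members, the lists, the settings and the tests were chosen with earlier results of these data known. Every member is named. Of each other list, at most the 3 genes with the smallest p in a comparison are named, and of similar genes the 5 highest correlations, passing over predicted genes. The lists hold 136 other genes, of which 127 were measured. The 18 other settings (17 for the interaction and the mean effects) were the arrays of 2 groups only, no moderation, a trended robust prior, the brighter genes only (level above the median), a new quantile normalization, centring on array medians, the median of the probe sets or the mean of their brighter part (the upper 50% by level), array weights, a block for the replicate number, and the omission of each array in turn, where the spread of a lone array was taken from the other groups.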

Additional observations from a re-analysis of the deposited data

How the results depend on the processing

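Over 579 values of medians, counts and single genes under other settings, 524 stayed on their side of the threshold or, for medians, moved by less than the spread between replicates (SD 0.23), 36 became stronger, 15 weaker and 4 moved, and no called value changed sign. The median between untreated genotypes, -0.09, changed sign in 2 settings, at 0.08 with the median of the probe sets and at 0.19 leaving out an array. The median over the members moved with single miR-21+/+ arrays: between untreated genotypes it ran from -0.21 to 0.19 when 1 array was left out, 0.19 being without replicate 2 of untreated miR-21+/+ tumors. For radiation of miR-21+/+ tumors it ran from 0.27 to 0.85 (0.85 without that array, 0.69 without replicate 1 of irradiated miR-21+/+ tumors), and for the interaction from -0.59 to -0.14 (without replicate 1 of untreated miR-21+/+ tumors). Members past the study's thresholds between untreated genotypes numbered 0 without moderation, 2 (*H2-Aa*, *Cd74*) with the median and 2 with the brighter part of the probe sets, and 0 to 1 leaving out an array. At an adjusted p under 0.05 there was 1 (*H2-Aa*, adjusted p = 0.047, over a range of 0.047 to 0.595) with the arrays of those 2 groups only. Between irradiated genotypes there was 1 (*Psmb8*) with the median and 1 with the brighter part, and 0 to 1 leaving out an array. For radiation of miR-21+/+ tumors there were 0 without moderation, 3 (*H2-Aa*, *H2-Ab1*, *Cd74*) with the median, 3 with the brighter part, and 0 to 2 leaving out an array. For the interaction there were 2 (*H2-Aa*, *H2-Ab1*) with the median of the probe sets, 1 (*Cd74*) with the replicate block, and 0 to 2 leaving out an array. For the mean genotype effect there was 1 (*Cd74*) with quantile normalization and 1 with the median, and 0 to 1 leaving out an array, and for the mean radiation effect 0 to 1. The cause of these differences was not tested. The replicate numbers were not taken as pairs, since deviations of same-numbered arrays correlated by -0.133 to 0.0418 over the pairs of groups, and the replicate block changed no other count. *Cd74* ran from 0.89 to 2.06 between untreated genotypes and from 0.78 to 1.95 after radiation of miR-21+/+ tumors when an array was left out. Of all genes, the share past the study's thresholds ran from 2.33% to 4.5% and from 2.41% to 11.8% between untreated and irradiated genotypes, from 1.5% to 3.11% and from 1.43% to 11.6% for radiation of miR-21+/+ and miR-21-/- tumors, from 2.09% to 13.3% for the interaction, and from 1.67% to 4.6% and 0.773% to 3.99% for the mean effects of genotype and radiation. For all comparisons except genotype in untreated tumors and radiation of miR-21+/+ tumors, the highest share was leaving out irradiated miR-21-/- replicate 2, which leaves the array that stood apart alone in its group. With 2 arrays a group, small differences could not be told from the spread between arrays.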
